A study of Mus musculus with 48 samples.

Results

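Unpolarized bone marrow-derived macrophages from p53 knockout mice were compared with those from wild-type mice, both in vehicle only. The comparison rests on 6 of the 48 libraries of the series, 3 of each genotype, chosen by their titles and descriptions. It covered every gene that passed a filter on low counts, 11779 of the 51789 listed. By the labels, marrow stem cells of C57BL/6 mice, wild-type or p53 knockout, grew for 6 days in M-CSF at 10 ng/mL and then received DMSO for 4 hours. No polarizing cytokine was added, and such cells are called M0. The same genotype contrast was also available in 18 further libraries that share none of these 6. Of these, M1 cells had 24 more hours in LPS (100 ng/mL) with IFN-γ (50 ng/mL), and M2 cells had 24 more hours in IL-4 and IL-13 (10 ng/mL each), both in vehicle, while a set of M0 cells received AP-3-84 at 10 µM in place of vehicle, again for 4 hours. All groups share the strain and the M-CSF culture. The genotype field of the knockout samples reads wild-type, whereas their titles and descriptions say KO, and these decided the grouping. The labels give neither the deleted part of Trp53 nor whether replicates came from separate mice or cultures, so p-values measure only the spread between these samples, which may be technical.

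p53, encoded by Trp53, is a transcription factor that is stabilized by DNA damage and other stress and switches on genes that halt the cell cycle, repair DNA, alter metabolism or start cell death. One of its targets is Mdm2, a ubiquitin ligase that marks p53 for destruction and so closes a feedback loop. Another is Cdkn1a, whose product p21 inhibits cyclin-dependent kinases and keeps cell cycle genes repressed. Bone marrow macrophages still divide in M-CSF, and bacterial or cytokine signals turn their inflammatory, antigen-presenting and lipid-handling genes up or down.

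The wild-type libraries held 3640881 to 4277426 counts and the knockout libraries 3081707 to 3469740. Counts between replicates of either genotype differed well beyond sampling noise (chi-square per gene 4.80 to 14.2), so each library was kept as a separate sample. Wild-type replicate 1 differed more from the other wild-type libraries (10.98 and 14.2) than those differed from each other (4.80). On the first principal component of the 36 bone marrow-derived libraries, which held 30.3% of the variance, the 3 knockout M0 vehicle libraries lay at 40.7 to 42.6, and the other M0 groups between -28.6 and 17.0. On this component, knockout M0 vehicle cells stood apart from knockout M0 cells given AP-3-84 as well as from wild-type M0 cells. Replicate 3 of the knockout M0 cells given AP-3-84 lay nearest to them, at 17.0 against -13.9 and -28.6 for replicates 1 and 2. Small noncoding RNAs took 0.303 to 0.333% of the counts in the knockout and 0.163 to 0.187% in the wild-type libraries. Without Rn7sk, the 7SK RNA described below, these shares were 0.177 to 0.179% and 0.161 to 0.184%, which overlap.

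The cells carried macrophage transcripts in both genotypes. Lyz2, which encodes lysozyme, was measured at 26422, 30434 and 33815 CPM (CPM, the count relative to the TMM-scaled library total, is the unit of every level below) in wild-type and at 25145, 27986 and 28473 CPM in knockout libraries, which overlap. Adgre1, which encodes the macrophage marker F4/80, was lower in the knockout, at 485, 504 and 466 CPM against 960.1, 1184 and 1148 CPM. Several defining markers of other cell types were not detected. The B cell markers Cd79a, Ms4a1, Pax5 and Vpreb3 had no count in any of the 6 libraries, nor did the T and NK cell markers Cd3e, Cd3g, Trbc2, Cd8a, Nkg7 and Ncr1 or the erythroid genes Hbb-bs, Hbb-bt and Klf1. The 10 listed stromal markers, collagens and other matrix genes, summed to 33.2 to 39.5 CPM in wild-type and to 380 to 573 CPM in knockout libraries, and none of them was at 0. Of 9 tested neutrophil markers none was called, with sums of 395 to 713 CPM in wild-type and 669 to 821 CPM in knockout libraries. Among progenitor genes, Sox4 was higher (log2 fold change 3.11) and Cd34 lower (-2.36) in the knockout. The platelet factor gene Pf4, from the erythroid and megakaryocyte list, averaged 1581 CPM in wild-type and 3640 CPM in knockout libraries and was not called (log2 fold change 1.20, edgeR adjusted p = 0.0673). The T and NK cell list, in which Cd4 was called higher but not without wild-type replicate 1, summed to 0.673 to 1.67 CPM and 5.76 to 7.08 CPM. The part of these cells in the results below was not tested.

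Knockout cells differed from wild-type cells in about as many genes upward as downward. The p53 targets Cdkn1a, Ccng1 and Phlda3, nearly all listed S phase and mitosis genes, chemokine genes such as Ccl2 and the scavenger receptor gene Marco were lower in the knockout. Most MHC class II genes, the apolipoprotein gene Apoe and the matrix gene Sparc were higher. With edgeR's quasi-likelihood test at an adjusted p under 0.05, 3906 genes (33.2% of those tested) differed, 1929 higher (16.4%) and 1977 lower (16.8%) in the knockout. The median log2 fold change, knockout over wild-type, was 0.03 over all genes tested, 1.09 over the genes called higher and -1.07 over those called lower. Of the called genes, 2108 (17.9% of those tested) lay at or beyond 1 on the log2 scale in either direction. In bulk RNA, fewer cells of a type and less RNA per cell cannot be told apart, and this holds for each result below.

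**Figure D1:**
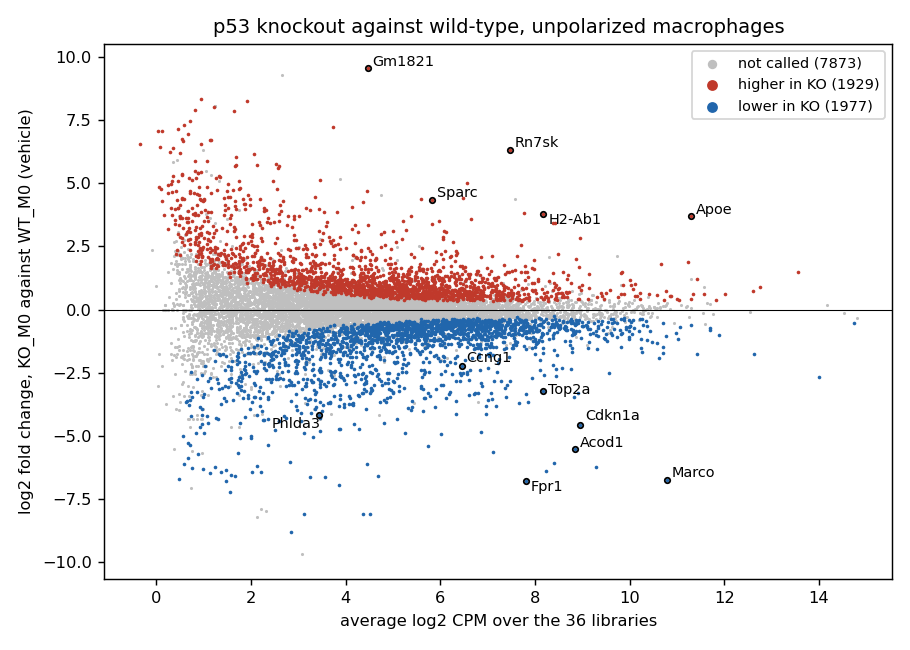
Log2 fold change of each of the 11779 genes, knockout over wild-type M0 in vehicle (vertical axis), against its average log2 CPM (horizontal axis); red points are the 1929 genes called higher, blue points the 1977 called lower and grey points the rest. Called genes lie on both sides of 0 along the whole range of expression, and the labelled genes are among those described in the text.

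The direct check of the knockout is the Trp53 transcript itself, at chromosome 11, 69580359 to 69591873 (GRCm38). It was measured at 13.2, 10.8 and 9.2 CPM in wild-type and at 3.14, 3.39 and 6.49 CPM in knockout libraries. The groups do not overlap, and transcript was left in all 3 knockout libraries. The log2 fold change was -1.34 (SE 0.40, edgeR adjusted p = 0.0102), and without knockout replicate 1 the adjusted p was 0.0536. A 3′ tag outside the deleted part checks nothing, and the deleted part is not given in the labels.

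At least 1 p53 target fell in each of the 6 functional classes listed, beside 16.8% of all genes called lower. At that share, 1 lower call in a small class is no result about the class. The lowest medians were in growth control and cell death. Of 76 listed targets, 63 passed the filter; 23 were lower and 3 higher, and their median log2 fold change was -0.51, against 0.03 over all genes. The cell cycle inhibitor gene Cdkn1a (chromosome 17, 29090976 to 29100727) showed the lowest p of the list. It stood at 1114, 865 and 803 CPM in wild-type and at 34.1, 36.6 and 45.7 CPM in knockout libraries. Every knockout library was far below every wild-type library, and the fitted log2 fold change was -4.58 (SE 0.32, edgeR adjusted p = 1.12e-10), or 23.9-fold lower. Ccng1 encodes cyclin G1, which recruits a phosphatase to Mdm2. Its transcript (chromosome 11, 40748552 to 40755311) was measured at 176, 114 and 119.9 CPM in wild-type and at 25.2, 33.9 and 29.2 CPM in knockout libraries, with no overlap and a log2 fold change of -2.22 (SE 0.24, adjusted p = 1.27e-07). The groups were separated in the same way for Zmat3, a zinc finger protein that binds RNA, at 47.3, 37.5 and 39.4 CPM against 15.2, 10.2 and 16 CPM (log2 fold change -1.58, adjusted p = 2.63e-05).

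Among the 10 growth control genes tested, 5 were lower, with a median log2 fold change of -1.26. Besides the genes above these were Gtse1, which shuttles p53 out of the nucleus (-4.30), and Sesn2, a sestrin that restrains mTORC1 (-1.47). Btg2 and Sesn1, also p53 targets in textbooks, had log2 fold changes of 0.12 and 0.24 and were not called. In the feedback class, 1 of 6 genes was called. This was Mdm2, at 286, 172 and 191 CPM in wild-type and 57.4, 64 and 53.3 CPM in knockout libraries (log2 fold change -1.89, adjusted p = 1.08e-05). No knockout library reached the lowest wild-type library. Mdm4, the partner of Mdm2, and the phosphatase gene Ppm1d were at 0.27 and -0.10 and were not called.

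In the cell death class, 5 of 11 genes were lower, with a median of -1.09. Phlda3, an inhibitor of AKT signalling (chromosome 1, 135766119 to 135769136), stood at 24.7, 17.2 and 15.3 CPM in wild-type and at 1.31, 0.923 and 0.811 CPM in knockout libraries, from 242 and 11 counts in all. Its log2 fold change was -4.18 (SE 0.49, edgeR adjusted p = 3.23e-07), or 18.2-fold lower. The death receptor gene Tnfrsf10b (-2.51), the nuclease gene Aen (-1.38), the pore-forming Bax (-1.11) and the death receptor gene Fas (-1.11) were the others. Fas was measured at 8.52, 17.7 and 18.1 CPM in wild-type and at 8.65, 8.93 and 2.98 CPM in knockout libraries, which overlap, and its call was lost without wild-type replicate 2 (adjusted p = 0.0861), without wild-type replicate 3 (0.086) and without knockout replicate 3 (0.159). Bbc3 and Pmaip1, which encode the BH3-only proteins PUMA and NOXA, were at -0.47 and -0.67 and were not called.

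Of 7 repair and nucleotide supply genes, the polymerase gene Polk (-0.91) and Pcna (-0.95), the sliding clamp of DNA polymerase, were lower. Xpc, a sensor of damaged DNA, was higher at 0.69, from 19.7, 17.7 and 16.9 to 27, 24.6 and 36 CPM, and lost its call without any 1 of the 3 wild-type libraries (adjusted p 0.0561, 0.087 and 0.0906 for replicates 1 to 3) or knockout replicate 3 (0.189). In the metabolic class, Tigar (-1.86), which lowers glycolytic flux, the glutathione peroxidase gene Gpx1 (-0.66) and the epoxide hydrolase gene Ephx1 (-1.36) were lower. The lysosomal activator gene Gm2a was higher (1.14). Of 19 signalling and other genes, 7 were lower. The most reduced were the thiamine transporter gene Slc19a2 (-3.37), the spindle genes Ckap2 (-3.13) and Psrc1 (-2.98), and Gdf15 (-2.56), which encodes a secreted stress factor. Pcna, Ckap2 and Psrc1 serve dividing cells. For these targets and for Gtse1, a direct effect of p53 loss and the fall of cell cycle genes described below cannot be told apart. Gdf15 stood at 74, 42.3 and 39.4 CPM in wild-type and at 7.6, 12 and 7.03 CPM in knockout libraries, without overlap. Eda2r, a receptor of the TNF receptor family, did not pass the filter: it had 11 counts over the wild-type and none over the knockout libraries, at least 3.14-fold lower in the knockout (against 3 counts over the group).

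**Figure D2:**
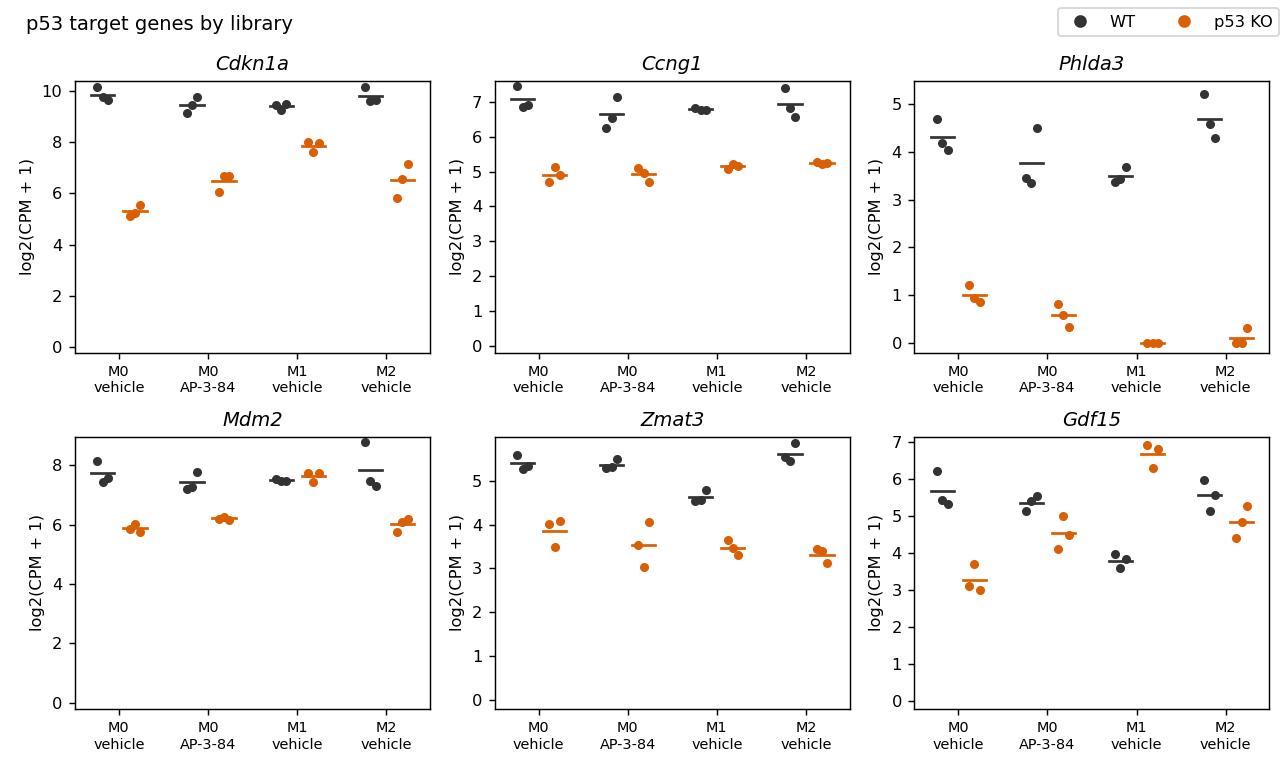
Level of 6 p53 targets in each library, as log2(CPM + 1) on the vertical axis, for wild-type (black) and knockout (orange) cells in M0 vehicle, M0 with AP-3-84, M1 vehicle and M2 vehicle; each point is a library and each bar the mean of 3. Cdkn1a, Ccng1, Phlda3 and Zmat3 are lower in the knockout in each of the 4 settings, while the Mdm2 groups overlap in M1 and Gdf15 is higher in the knockout in M1.

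Promoter stretches of Cdkn1a and Ccng1 are shown because they carry the kind of sequence that p53 reads. RefSeq promoters (GRCm38.p6, 250 bases before to 50 after the start) were searched for the 20-base p53 element, allowing no spacer, keeping both CNNG cores and allowing at most 2 mismatches elsewhere; the element reads alike on both strands. In capitals is the match, with 20 flanking bases on each side, 5′ to 3′ on the strand of the gene. The Cdkn1a stretch lies at chr17:29090908-29090967, plus strand, with its match 51 to 32 bases before the start. The Ccng1 stretch lies at chr11:40755442-40755501, minus strand, with its match 195 to 176 bases before the start.
Cdkn1a: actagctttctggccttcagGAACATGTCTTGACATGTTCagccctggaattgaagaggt
Ccng1: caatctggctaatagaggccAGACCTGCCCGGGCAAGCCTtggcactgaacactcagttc
Such a match was in 0.392% of the 27025 promoters of the table, in 5 of the 64 listed targets with a promoter (7.81%) and in 4 of the 21 targets called lower (19%), which were Ccng1, Cdkn1a, Ckap2 and Gtse1. A match is a description of letters and not a binding site, and the window leaves out elements farther from the start.

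Cell cycle genes were lower in the knockout almost as a block. Of 62 tested, 54 were lower and 1 was higher, with a median log2 fold change of -2.61, and the summed level of the list was 5734 to 7339 CPM in wild-type and 1339 to 1582 CPM in knockout libraries. All 25 S phase and replication genes were lower, with a median of -2.48. Members that fell include Ccne2, which encodes a cyclin of S phase entry (-4.02), Uhrf1, which keeps DNA methylation through replication (-3.89), the ribonucleotide reductase gene Rrm2 (-3.43), and all 6 genes of the MCM helicase, from -1.50 for Mcm3 to -2.56 for Mcm5.

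Of 25 mitosis genes, 24 were lower, with a median of -3.25. The centromere gene Cenpa, at -0.57, was the one not called. Top2a, the topoisomerase that untangles chromosomes, was measured at 443, 495 and 568 CPM in wild-type and at 51.1, 57.6 and 50.8 CPM in knockout libraries (log2 fold change -3.24, SE 0.41, edgeR adjusted p = 1.95e-06). Ube2c, the ubiquitin-conjugating enzyme of the anaphase-promoting complex, stood at 238, 249 and 265 CPM against 16.8, 17.9 and 8.38 CPM (-4.13, adjusted p = 1.82e-07). The groups lie far apart in both cases. Replicates within a group differ little, except that knockout replicate 3 was lower than the other knockout libraries for Ube2c. The kinase gene Bub1 (-3.71) and the kinesin gene Cenpe (-3.32), which work at the spindle checkpoint and the kinetochore, and Ect2 (-3.69), which drives cytokinesis, fell as well.

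Among 12 G1 genes, 5 were lower and 1 higher. Ccnd1, the cyclin D1 gene that responds to growth factors, averaged 645 CPM in wild-type and 63.8 CPM in knockout libraries (-3.34), and Myc averaged 2.38 and 0.352 CPM (-2.59). Cdkn1b, which encodes the inhibitor p27, was higher (1.24). Cdk4 (-0.21), Cdk6 (-0.41), Ccnd2 (0.30) and Rb1 (-0.11) were not called. Of 9 regulators of the p53 pathway, 3 were lower (1 without knockout replicate 1) and 1 was higher. Besides Trp53, the checkpoint kinase gene Chek1 was at -2.25 and Chek2 at -0.89, but Chek1 lost its call without wild-type replicate 1 (adjusted p = 0.0771), knockout replicate 1 (0.052) or knockout replicate 2 (0.0726), and Chek2 without knockout replicate 3 (0.0911). Hipk2, a kinase that phosphorylates p53, was higher (1.28, adjusted p = 0.000191), from 17.5, 12.2 and 23.3 to 39, 45.9 and 43.3 CPM.

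Many mitosis genes share a promoter motif, the CHR element TTTGAA, which recruits the DREAM and MuvB complexes. The sequence context of a match to these letters is shown for 3 genes that fell. The letters TTTGAA, on either strand, were in 15 of 20 mitosis promoters (75%), in 2 of 20 S phase promoters (10%), in 1 of 8 G1 promoters (12.5%) and in 20.2% of all 27025 promoters. The motif is in capitals below, with its flanks, 5′ to 3′ on the strand of the gene, from RefSeq promoters of GRCm38.p6. The stretches lie at chr2:164769880-164769925 (plus strand) for Ube2c, chr11:99024343-99024388 (minus strand) for Top2a and chr10:69352958-69353003 (minus strand) for Cdk1. Top2a and Cdk1 each hold another match nearer the start, at -23 to -18 and at -15 to -10, which is not shown. Which match, if any, acts as the CHR element was not tested.
Ube2c: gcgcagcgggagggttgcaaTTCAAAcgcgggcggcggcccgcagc
Top2a: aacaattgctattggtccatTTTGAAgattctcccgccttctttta
Cdk1: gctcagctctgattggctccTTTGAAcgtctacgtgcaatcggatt
In Ube2c the letters read TTCAAA, so that the motif is on the opposite strand. Whether these letters bear on the change was not tested.

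Genes of the macrophage state moved in both directions. Of 25 identity genes, 11 were higher and 4 lower, with a median log2 fold change of 0.49. Over all genes tested, 16.4% were called higher and 16.8% lower, and these shares stand beside each M0 list below. The share of identity genes called lower was near that of all genes. Csf1r, the M-CSF receptor gene, was measured at 1321, 1884 and 2192 CPM in wild-type and at 4947, 6812 and 8054 CPM in knockout libraries (1.88, SE 0.30, edgeR adjusted p = 3.07e-05). The lowest knockout library was well above the highest wild-type library. The apoptotic cell receptor gene Mertk (2.18), the transcription factor gene Irf8 (1.49), Trem2 (1.11), which encodes a lipid-sensing receptor, and the protease gene Ctss (1.20) rose, while Adgre1 (-1.18) and the integrin gene Itgam (-0.97) fell. Without wild-type replicate 2, 7 identity genes were called higher.

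MHC class II genes, which present peptides to CD4 T cells, rose in the knockout: 7 of 9 were called, none lower, and the median was 3.42. H2-Ab1 stood at 9.42, 37.8 and 40.9 CPM in wild-type and at 389.6, 411 and 407 CPM in knockout libraries (3.78, SE 0.79, adjusted p = 0.00079). The knockout libraries agree closely, and wild-type replicate 1 is low against the other wild-type libraries. The same replicate was lowest for H2-Aa, H2-Eb1 and Cd74, the invariant chain gene, and 6 members were called without it. In a fit to the 6 libraries alone with the replicate number as a block, 4 were called, and H2-Aa (adjusted p = 0.0906) and H2-Eb1 (0.085) were not. Ciita, the master regulator of these genes, had 1 count over the wild-type and 28 over the knockout libraries, a ratio of 32.7 with a 95% interval of 5.4 to 1336 from counting error only. Reads of near-identical H2 genes may be split in counting.

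Markers of B cells and dendritic cells, which also carry MHC class II, were measured beside this. The B cell genes Ebf1 and Ighm and the dendritic gene Batf3 were higher in the knockout, Batf3 not without wild-type replicate 2. The B cell list summed to 6.93 to 12.5 CPM in wild-type and 25.7 to 32 CPM in knockout libraries. The dendritic list summed to 1.53 to 2.69 CPM and 5.24 to 11.9 CPM. Their part in the rise of MHC class II transcripts was not tested. The share of such cells cannot be told apart from low expression in macrophages.

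Complement and Fc receptor genes were split. C1qa (1.69), C1qb (1.79) and C1qc (0.98), the 3 chains of the opener of the classical pathway, rose together with Fcgr3 (1.42) and the inhibitory Fc receptor gene Fcgr2b (1.43). C3 (-1.15), the properdin gene Cfp (-0.63) and the integrin gene Itgb2 (-0.96) fell. In all, 6 of 14 were higher and 3 lower, beside 16.4% and 16.8% of all genes. The median of 0.06 was close to that of all genes.

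Of 21 lysosome genes, 12 were higher and 2 lower (median 0.58), beside 16.4% and 16.8% of all genes. The transcription factor genes Tfeb (1.54) and Tfe3 (0.76), which switch on lysosome and autophagy genes, rose, as did the autophagy genes Gabarapl1 (1.42) and Map1lc3b (0.81) and the cholesterol exporter gene Npc1 (0.77). The cathepsin gene Ctsl fell (-1.29). Without wild-type replicate 2, 8 lysosome genes were called higher, and without wild-type replicate 1, 1 was called lower.

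Genes of lipid export and transport were higher in 8 of 20 and lower in 2, beside 16.4% and 16.8% of all genes. Their median was 0.73. Apoe, the apolipoprotein that carries cholesterol out of macrophages, was measured at 802, 1397 and 1689 CPM in wild-type and at 15350.4, 16019 and 19075 CPM in knockout libraries (3.70, SE 0.87, edgeR adjusted p = 0.0022). The lowest knockout library was far above the highest wild-type library. Apoc2 (2.42), the phospholipid transfer protein gene Pltp (3.37), the sterol transporter gene Abcg1 (1.69) and Angptl4 (4.14), an inhibitor of lipoprotein lipase, rose. Nr1h3, which encodes the sterol receptor LXRα that controls several of these genes, fell (-1.21), from 41.5, 60.5 and 55.5 to 19.4, 21.2 and 27.3 CPM. Cholesterol synthesis genes moved only downward, in 8 of 20 (median -0.57), with Idi1 at -2.62, Sqle at -1.47 and Fdps at -1.16.

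**Figure D3:**
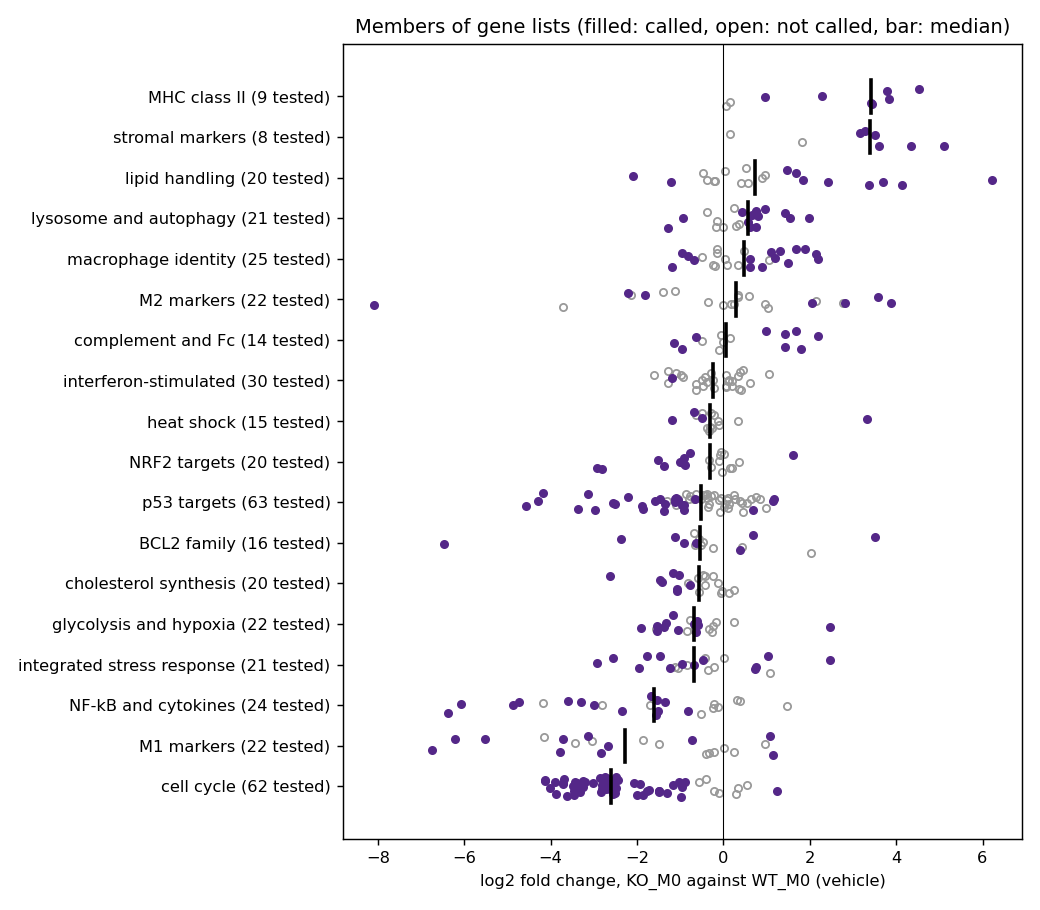
Log2 fold change, knockout over wild-type M0 in vehicle, of every tested member of each gene list (horizontal axis), by list (vertical axis); filled points were called, open points were not, and the bar is the median of the list. Cell cycle genes lie furthest to the left (median -2.61) and MHC class II genes furthest to the right (median 3.42).

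Inflammatory genes were lower in the knockout. Of 24 tested, 14 were lower and none higher, with a median log2 fold change of -1.61 (-1.55 with genes that have no count in a group set at their bound). Tnf, the inflammatory cytokine gene, was measured at 187, 238 and 236 CPM in wild-type and at 21.7, 15.1 and 13.3 CPM in knockout libraries (-3.72, SE 0.44, edgeR adjusted p = 8.94e-07). Nfkbia, which encodes the feedback inhibitor of NF-κB, fell from 1075, 2059.9 and 2107 to 558, 560.2 and 531 CPM (-1.67). Neither gene's groups overlap. Nfkbiz (-3.61), Cxcl2 (-3.30) and Icam1 (-1.54), which encode an NF-κB cofactor, a neutrophil chemokine and an adhesion molecule, fell too. Il1b was at -1.49 with an adjusted p of 0.107, from 8.97, 72.6 and 88.2 to 18.1, 22.5 and 19.7 CPM, which overlap.

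The monocyte chemokine genes Ccl2 and Ccl7 varied widely between replicates. Ccl7 stood at 579.7, 57.1 and 26.6 CPM in wild-type and at 2.1, 4.62 and 1.35 CPM in knockout libraries, and Ccl2 at 656, 93.2 and 50.6 CPM against 4.19, 7.39 and 0.541 CPM. Wild-type replicate 1 was the high library for both genes, and no group overlaps. Their log2 fold changes were -6.38 (adjusted p = 0.00253) and -6.07 (0.00128). Neither passed in a fit to the 6 libraries alone (adjusted p = 0.066 and 0.0517).

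Of 22 M1 markers, 9 were lower and 2 higher, with a median of -2.27 (-1.25 at the bounds). Marco, a scavenger receptor that binds bacteria (chromosome 1, 120474538 to 120505024), was measured at 1171, 1963 and 2070.3 CPM in wild-type and at 16.8, 17.5 and 14.3 CPM in knockout libraries. The groups lie far apart, and the log2 fold change was -6.74 (SE 0.82, adjusted p = 1.83e-06). Acod1, the enzyme that makes itaconate, stood at 189, 427 and 359.9 CPM against 8.39, 5.54 and 7.03 CPM (-5.53). Slc13a3, a carrier of dicarboxylates, fell by 6.21 on the log2 scale. The costimulator gene Cd86 (1.09) and Irf1 (1.14) rose, but without wild-type replicate 1 only 1 M1 marker was called higher.

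M2 markers had no common direction: 4 of 22 were higher (2 without wild-type replicate 1) and 3 lower. These shares are near the 16.4% of all genes called higher and the 16.8% called lower. The beta-glucan receptor gene Clec7a (2.82) and Socs2 (3.87), a brake on cytokine signalling, rose, and the transferrin receptor gene Tfrc fell (-1.81). Ch25h, which makes 25-hydroxycholesterol, had 116 counts over the wild-type and none over the knockout libraries, at least 33.1-fold lower. Arg1, a widely used M2 marker, averaged 3.9 CPM in wild-type and 1.46 CPM in knockout libraries and was not called, nor was Retnla at 0.485 and 2.17 CPM. Of 30 interferon-stimulated genes, 1 was called, with a median of -0.23. This was Usp18, at -1.18 (adjusted p = 0.0455), and its call was lost without any 1 of 5 libraries, up to an adjusted p of 0.141 without knockout replicate 1; it was kept without wild-type replicate 3.

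Lists of metabolic and stress genes held more lower than higher calls. Glycolysis and hypoxia genes were lower in 12 of 22 and higher in 1, with a median of -0.68, among them the glucose transporter gene Slc2a1 (-1.91), Pgk1 (-1.54), Tpi1 (-1.54) and Ldha (-1.17). Pgk1, which makes ATP in glycolysis, stood at 601, 538 and 540.1 CPM in wild-type and at 177, 222 and 179.6 CPM in knockout libraries, without overlap. Vegfa, a hypoxia and stress target that encodes an angiogenic factor, was the one that rose (2.47). Left-out libraries gave 8 or 9 lower glycolysis and hypoxia genes, with the fewest without wild-type replicate 1.

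Targets of NRF2, the regulator of the antioxidant response, were lower in 9 of 20 and higher in 1 (median -0.31). The cystine transporter gene Slc7a11 (-2.92), the glutathione reductase gene Gsr (-2.81) and the malic enzyme gene Me1 (-1.37) fell, and Osgin1 rose (1.61). Without wild-type replicate 1, 5 were lower. Genes of the integrated stress response were lower in 9 of 21 and higher in 4 (2 without knockout replicate 2), with a median of -0.69. Mthfd2, of mitochondrial folate metabolism, stood at 129, 107 and 94.8 CPM against 37.2, 28 and 31.6 CPM (-1.77, adjusted p = 8.54e-06), while Ddit3, which encodes CHOP, rose (1.03). Of 15 heat shock genes, 3 were lower and 1 higher, beside 16.8% of all genes called lower. Hspb1, a small heat shock protein gene, rose from 3.81, 3.11 and 5.11 to 27.8, 45.6 and 48.4 CPM (3.33, adjusted p = 0.00016), and Hsp90aa1, which encodes the inducible HSP90, fell (-1.18). Without wild-type replicate 1, 1 heat shock gene was lower.

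BCL2 family genes, which set the threshold of mitochondrial cell death, were lower in 5 of 16 and higher in 3, with a median of -0.53. Over all genes tested, 16.8% were called lower and 16.4% higher. Bax and Bid (-0.92) fell, although Bid lost its call without wild-type replicate 1 (adjusted p = 0.0674). Bik had 37 counts over the wild-type and none over the knockout libraries, at least 10.6-fold lower. Bcl2l11, which encodes the killer protein BIM, rose (0.70), and Bcl2, Bcl2l1 and Mcl1, which protect cells, were at -0.56, -0.67 and -0.25 and not called. None of the 3 higher genes was called without wild-type replicate 1. Bcl2a1a (-2.38) belongs to a set of near-identical copies, and the counting may split their reads.

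The 10 largest falls among genes with an average log2 CPM of at least 3 and no overlap between groups included Marco, Ccl7 and Ch25h, described above. Fpr1, the receptor of bacterial formyl peptides, stood at 257, 315 and 274 CPM in wild-type and at 2.36, 3.08 and 2.16 CPM in knockout libraries (-6.79, SE 0.86, edgeR adjusted p = 2.56e-06). The 3 knockout libraries were alike and close to the floor. Cd55, a brake on complement at the cell surface, had 438 and 1 counts over the groups, a ratio of 375 (95% counting interval 67 to 14863). Klra2, a lectin-like receptor gene, had 267 and 2 counts, a ratio of 114 (31.4 to 949.8). Lancl3 (149.6-fold, 41.1 to 1240), Zfp811 (132-fold, 23.3 to 5248) and Raver2 (at least 11.7-fold) were also among the largest falls. So was 2010005H15Rik (at least 33.1-fold), whose call was lost without any 1 of 4 libraries, with adjusted p of 0.189 without wild-type replicate 1 and 0.0609, 0.059 and 0.0697 without knockout replicates 1 to 3.

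Among the 10 largest rises were several genes of the extracellular matrix and of contractile cells. Sparc, a collagen-binding matrix protein gene, was measured at 12.3, 9.08 and 11.5 CPM in wild-type and at 204, 265 and 204 CPM in knockout libraries (4.35, SE 0.53, adjusted p = 1.41e-06). Bgn, which encodes the proteoglycan biglycan, stood at 3.59, 2.63 and 6.13 CPM against 85.2, 135 and 97.1 CPM (4.68). Every knockout library was above every wild-type library for both, which the choice of these 10 genes required. The beta-tropomyosin gene Tpm2 (4.46), the transferrin gene Trf (4.40) and Plxdc2 (4.38) rose as well. Lrrc32, which docks latent TGF-β at the cell surface, had 53 counts over the knockout and none over the wild-type libraries, at least 20.6-fold higher, and Dclk1, a microtubule-associated kinase gene, had 103 and 3, a ratio of 40.1 (13.3 to 197).

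These matrix genes moved with the stromal marker list, of which 6 of 8 tested genes were higher with a median log2 fold change of 3.39. Col1a1, the collagen I gene, rose from 8.52, 11.9 and 10.2 to 112, 142 and 94.1 CPM, and Cxcl12, a chemokine of marrow stroma, averaged 0.426 CPM in wild-type and 15 CPM in knockout libraries. Dcn and Lum, 2 other stromal matrix genes, averaged at most 0.629 CPM in either group and were not called. Stromal cells in the knockout cultures and expression by macrophages cannot be told apart in these libraries. Of 6 tested osteoclast genes, which M-CSF-grown cells can express, 3 were lower and none higher. These were Acp5 (-3.82), Ctsk (-3.29) and Ocstamp (-4.41), and 2 were lower without knockout replicate 3. The list summed to 130.5 to 261 CPM in wild-type and 55 to 67.4 CPM in knockout libraries.

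A further pair of the largest rises were noncoding RNAs. Rn7sk, the 7SK RNA that restrains transcription elongation and carries no poly(A) tail in the textbook account, was measured at 10.3, 15.1 and 22.7 CPM in wild-type and at 1116, 1296 and 1455 CPM in knockout libraries (6.33, SE 0.84, adjusted p = 5.23e-06). Gm26917 stood at 23.8, 16.5 and 16.4 CPM against 521, 659.7 and 633 CPM (5.00). Both separate the groups fully, which was a condition for being listed among the largest rises. The share of the other small noncoding RNAs, given above, overlapped between the genotypes.

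**Figure D4:**
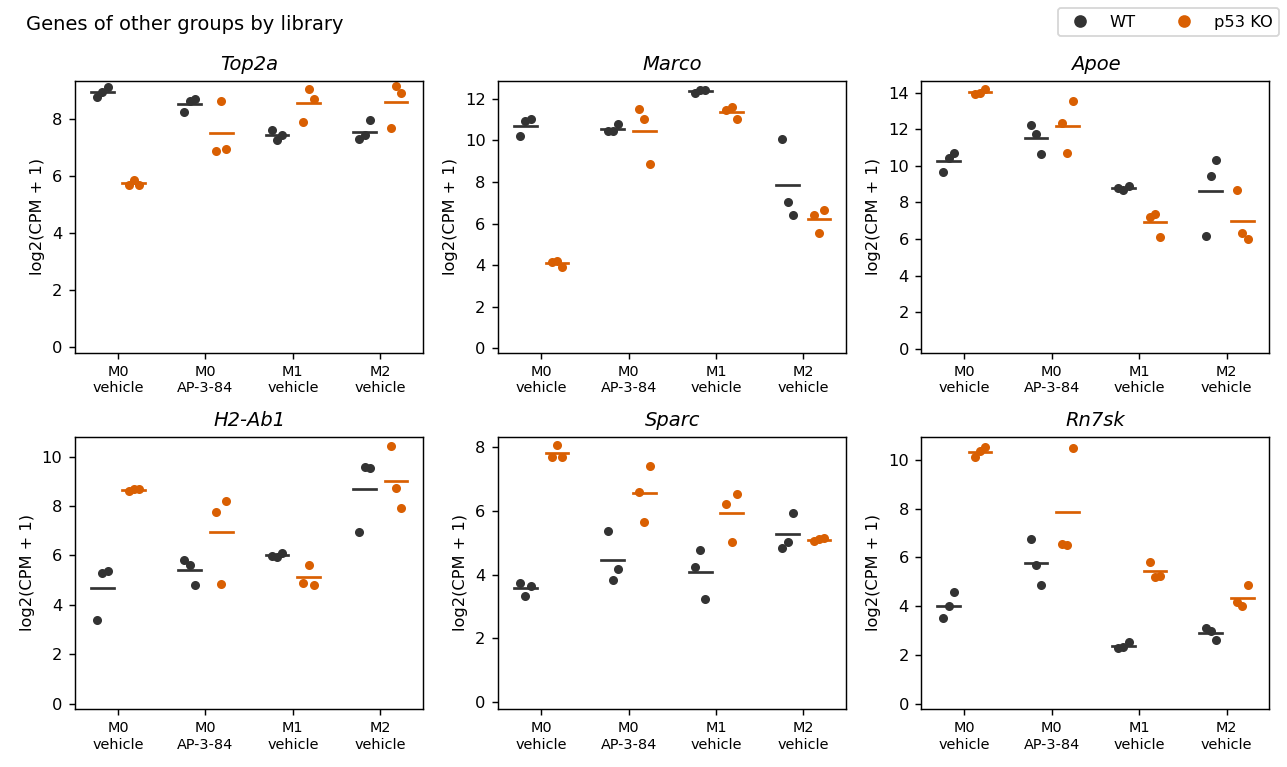
Level of Top2a, Marco, Apoe, H2-Ab1, Sparc and Rn7sk in each library, as log2(CPM + 1) on the vertical axis, for wild-type (black) and knockout (orange) cells in M0 vehicle, M0 with AP-3-84, M1 vehicle and M2 vehicle; points are libraries and bars means of 3. The genotypes are separated for all 6 genes in M0 vehicle, which was a condition of choice for Marco, Sparc and Rn7sk. Replicate 3 of the knockout M0 group given AP-3-84 lies nearer to the knockout vehicle libraries for Rn7sk, at 1425 CPM against 93.5 and 89.3 CPM.

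Genes next to Trp53 were listed apart, as they are inherited with the locus. Within 5 Mb on either side, 105 genes were tested, of which 18 were higher and 17 lower (33.3%, beside 33.2% over all genes), with a median log2 fold change of 0.07. None of them was called in the same direction in all 4 genotype comparisons, and chromosome 11 beyond this window was not examined. Those with the lowest p were the mitosis genes Aurkb (-2.85), Pimreg (-2.43) and Mis12 (-0.78), and Kctd11 (1.86), which encodes a ubiquitin ligase adaptor, and the non-muscle myosin gene Myh10 (3.88).

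The genotype contrast was next taken in M1, in M2 and in M0 cells given AP-3-84, in libraries other than the 6 above; whether they came from the same mice or cultures is not given. Few genes differed alike everywhere, and p53 targets were among those that did. In M1 cells 1372 genes differed (11.6%), 5.93% of all genes higher and 5.71% lower in the knockout. In M2 cells 419 differed (3.56%), 1.21% higher and 2.34% lower. In M0 cells given AP-3-84, 1385 differed (11.8%), 6.97% higher and 4.79% lower. Of the 3906 genes called in M0 vehicle, 351 were called in the same and 212 in the opposite direction in M1 (8.99% and 5.43% of the M0 calls), 91 and 109 in M2 (2.33% and 2.79%), and 491 and 157 with AP-3-84 (12.6% and 4.02%). As shares of the other lists, the same-direction genes were 25.6% of the M1, 21.7% of the M2 and 35.5% of the AP-3-84 calls. The counts in these other settings moved with single libraries. The M2 count was 97, 125 and 916 without knockout M2 replicates 3, 2 and 1, and 278 without wild-type M2 replicate 1. The M1 count was 693, 674 and 786 without wild-type M1 replicates 1 to 3, and 668 and 580 without knockout M1 replicates 1 and 3. With AP-3-84 it was 688 and 2102 without knockout replicates 1 and 3, and 798 and 922 without wild-type replicates 2 and 3. Scaling by total counts moved the median of all genes to 0.27 in M1 and 0.19 in M2, and the share of called genes that were higher from 50.9% to 89% in M1 and from 34.1% to 76.6% in M2.

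Lower in the knockout in all 4 settings were 14 genes (0.119% of those tested), and 3 were higher (0.0255%). The lower genes include the p53 targets Phlda3, Ccng1, Cdkn1a, Zmat3, Psrc1 and Dglucy. The others were Inka2, Mgmt, Adora2b, Cd81, Glod4, Pid1, Exoc4 and Gpr84, of which Mgmt repairs alkylated guanine, Adora2b is an adenosine receptor gene, Cd81 a tetraspanin gene and Gpr84 a receptor gene for medium-chain fatty acids. None of these 14 genes lies within 5 Mb of Trp53, and linkage to Trp53 beyond that distance was not examined. Inka2, a kinase inhibitor gene, had 61, 44, 15 and 62 counts over the wild-type groups in M0 vehicle, M0 with AP-3-84, M1 and M2, and none in any knockout library of these settings, at least 17.4-fold lower in M0 vehicle. Leaving out each of the 24 libraries in turn, 7 of the 17 genes kept each call: Ccng1, Cd81, Cdkn1a, Exoc4, Inka2, Phlda3 and Zmat3. The other 10 lost a call in at least 1 setting, and without knockout M2 replicate 2, 9 genes were left. A match to the p53 element lay in 3 of the 13 promoters available for the lower genes (23.1%), those of Ccng1, Cdkn1a and Pid1. The 3 higher genes, Gm1821, Gm15950 and Gm8995, are predicted genes. Gm1821 had no count in the wild-type libraries of these settings and 265 counts over the knockout M0 vehicle libraries (21.7, 32 and 21.1 CPM), at least 103-fold higher. Copies elsewhere in the genome could share its reads.

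Of 63 tested p53 targets, 23 were lower and 3 higher in M0 vehicle, beside 16.8% and 16.4% of all genes. In M1, 9 were lower and 4 higher (5.71% and 5.93% of all genes), the latter near the share of all genes. In M2, 17 were lower and none higher (2.34% and 1.21%), and with AP-3-84, 19 and 1 (4.79% and 6.97%). In M1, 4 were lower without knockout M1 replicate 3, where 256 of all 12063 genes were. In M2, 11 were lower without knockout M2 replicate 2, where 83 of all 12081 genes were. The size of the effect differed for single targets. Cdkn1a averaged 672 ± 56.4 CPM (SD, n = 3) in wild-type and 232 ± 31.1 CPM in knockout M1 cells, a log2 fold change of -1.54 against -4.58 in M0. The difference between these effects was 3.04 (edgeR adjusted p = 4.72e-06), and it shares the M0 libraries with the M0 effect. Mdm2 averaged 181 ± 4.59 CPM in wild-type and 199.6 ± 22.9 CPM in knockout M1 cells, with a log2 fold change of 0.15 against -1.89 in M0 (difference 2.04, adjusted p = 0.000351). Gdf15 went from lower in M0 to higher in M1, where it averaged 13 ± 1.76 CPM in wild-type and 103 ± 23 CPM in knockout cells. For Ccng1 the effects of -2.22, -1.67 and -1.75 in M0, M1 and M2 were not found to differ (adjusted p = 0.234 and 0.288).

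The fall of cell cycle genes was not seen in polarized cells. In M1, 11 of the 62 genes were higher and 2 lower (median log2 fold change 0.58), and in M2, 5 were higher and none lower (median 0.86). With AP-3-84, 16 were lower and none higher (median -0.67). Over all genes, 5.93% were higher and 5.71% lower in M1, 1.21% and 2.34% in M2, and 6.97% and 4.79% with AP-3-84. The genotype effect differed between M1 and M0 for 55 of the 62 genes, 54 upward and 1 downward (11.2% and 9.51% of all genes tested, 20.7% in all), and between M2 and M0 for 54, all upward (13.9% of all genes; 27.1% in both directions). With total-count scaling the share of such differences that were upward went from 54.1% to 76.4% for M1 and from 51.4% to 65.2% for M2 over all genes. Top2a averaged 176 ± 22.7 CPM in wild-type and 396 ± 148 CPM in knockout M1 cells, and 193 ± 49 and 425 ± 193 CPM in M2 cells. Wild-type M0 vehicle cells, at 502 ± 62.9 CPM, were above all of these means, and knockout M0 vehicle cells, at 53.2 ± 3.81 CPM, below them. The M1 and M2 counts of this list rest on single libraries. Without wild-type M1 replicate 2, 2 genes were higher in M1. In M2, none was higher without knockout M2 replicate 2 and 28 were higher without knockout M2 replicate 1. With AP-3-84, 6 were lower without knockout replicate 1 and 30 without knockout replicate 2.

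The effects on other groups also differed between settings. The shares over all genes in each setting, given above, stand beside these counts. None of the 9 MHC class II genes was called in M1, M2 or with AP-3-84, where their medians were 0.21, 0.15 and 1.86, although 4 were higher with AP-3-84 without knockout replicate 2. The genotype effect on them differed from that in M0 for 5 genes in M1 (2 without wild-type M1 replicate 3) and for 5 in M2. Fpr1 had log2 fold changes of -0.42 in M1 and -0.70 with AP-3-84, neither called, and of -2.61 in M2 (adjusted p = 0.0344), against -6.79 in M0 vehicle. Marco was at -0.98 in M1 and 0.25 with AP-3-84, neither called, and at -2.50 in M2 (adjusted p = 0.0344). Without wild-type M2 replicate 1 the adjusted p in M2 was 0.786 for Fpr1 and 0.629 for Marco, and both calls were also lost without knockout M2 replicate 2 or 3, that of Fpr1 also without knockout M2 replicate 1. With AP-3-84, Marco averaged 1526 ± 199 CPM in wild-type and 1812 ± 1231 CPM in knockout M0 cells, where the knockout libraries held 2896, 2067 and 473 CPM. Inflammatory genes had 5 higher and none lower in M1 (3 without wild-type M1 replicate 3), and 5 lower and none higher in M2 (none without knockout M2 replicate 2). Stromal markers were higher in 5 of 8 in M1 and in 5 with AP-3-84, and in none in M2; without wild-type M1 replicate 3 none was called in M1, and without wild-type AP-3-84 replicate 2, 2 were called with AP-3-84. Interferon-stimulated genes, of which 1 was called in M0 vehicle, were higher in 24 of 30 with AP-3-84, and in 11 without wild-type AP-3-84 replicate 2.

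**Figure D5:**
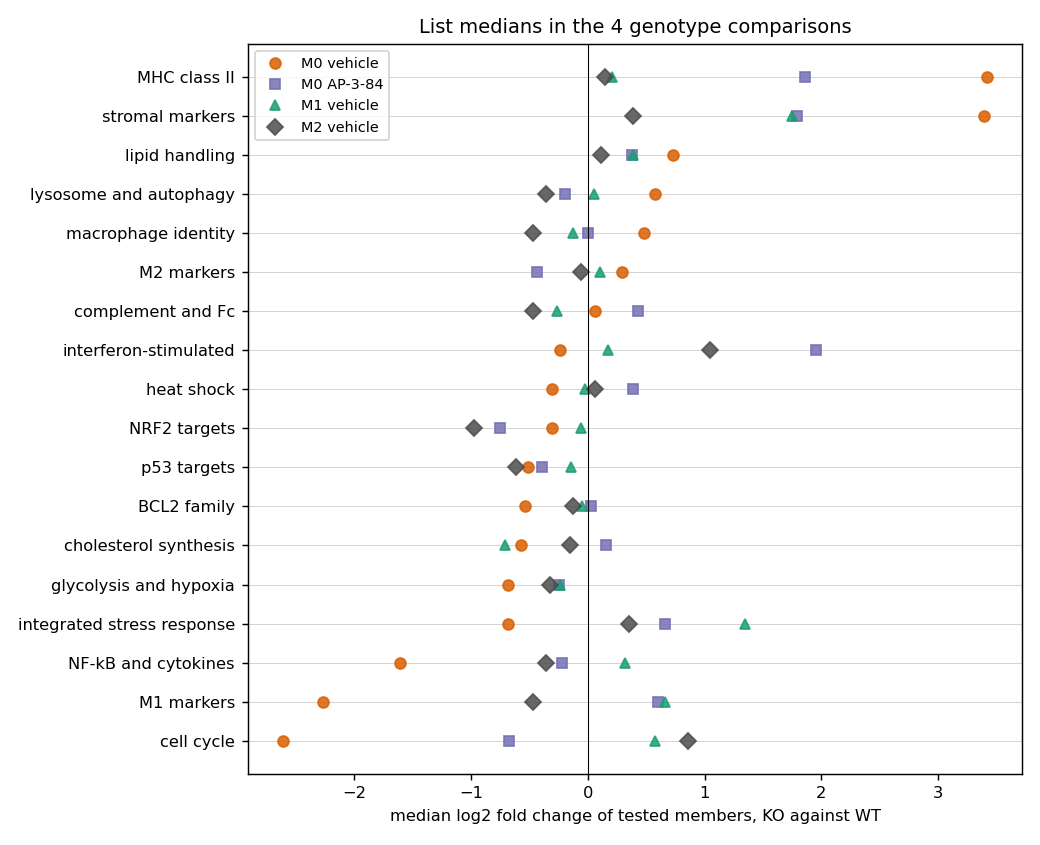
Median log2 fold change, knockout over wild-type, of 18 gene lists (vertical axis) in M0 vehicle, M1 vehicle, M2 vehicle and M0 with AP-3-84 (one marker each, horizontal axis). The median of the p53 targets is below 0 in all 4 settings, at -0.51, -0.14, -0.62 and -0.39, while that of the cell cycle genes is -2.61 in M0 vehicle and above 0 in M1 and M2.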

How the data were processed

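Expression was measured by QuantSeq 3′ mRNA sequencing (100 ng of RNA, 75 base reads, per the labels' protocols). The authors deposited a table of whole-number counts per Ensembl gene ID for all libraries. The submitters' processing notes name RSEM, Bowtie2 and DESeq2 without versions or roles; no source used here gives the genome build, the annotation or the use of strand. RSEM makes estimated counts, so the deposited counts may be rounded. Symbols were found for 51596 of 51789 IDs.

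Counts of the 36 bone marrow-derived libraries were fitted with edgeR 4.0.16 (R 4.3.3): filterByExpr, TMM factors (0.829 to 1.12), 12 group means and a robust quasi-likelihood test. Fold changes are log2 values, knockout over wild-type, and p-values were adjusted by the Benjamini-Hochberg method over all genes tested, with a threshold of 0.05. The script was tested on simulated data. The M1 and M2 differences share the M0 libraries with the M0 comparison. A floor of 3 counts over a group bounds folds against groups with no counts, and counting intervals (95%) and floors cover counting error only.

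Members and gene lists were chosen with earlier results of these data known. Named genes were Trp53 and 5 of its targets, the 10 largest called rises and 10 largest called falls (average log2 CPM at or above 3, no overlap between groups), the 4 called members of each list with the lowest p, the 3 genes with the lowest p in each interaction and up to 5 called genes within 5 Mb of Trp53; further genes were named after their values were seen. Alternatives were other size factors, no filter, DESeq2 1.42.0, smaller fits, a fold threshold, a replicate block and leaving out each library; leaving out libraries outside the 6 was added after the data were seen. The 12 peritoneal libraries and the M1 and M2 cells given AP-3-84 were not compared here, and a few genes are not reported here.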

Additional observations from a re-analysis of the deposited data

Results flagged for a closer look

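The genotype effect differed between cell states, by a test of the difference itself (edgeR), for 2442 genes between M1 and M0 and for 3197 between M2 and M0. These are 20.7% and 27.1% of all genes tested. Among 43 named genes 28 had such a difference; some of them were named for the lowest p of this very test or for the largest M0 changes, so nothing is read from that count. For each gene the state with the lower p is given here as the effect in the polarized state minus that in M0, on the log2 scale. All of these differences share the M0 vehicle libraries.

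Among p53 targets the difference was 3.04 for Cdkn1a and 2.04 for Mdm2 in M1, 5.54 for Gdf15 in M1, and -3.64 for Phlda3 in M2. The Phlda3 difference was lost without knockout M2 replicate 2 (adjusted p = 0.0529). It compares fitted effects of -7.82 in M2 and -4.18 in M0, where Phlda3 had few knockout counts. Mitosis genes differed by 5.19 (Knl1, M1), 5.41 (Bub1, M2) and 4.57 (Cenpe, M1), from lower in the knockout in M0 to higher in M1 or M2.

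Most of the next genes were chosen as the largest M0 changes, and the difference subtracts that same M0 effect, so its sign is largely set by the choice. Among the largest M0 rises the difference in M2 was negative: Lrrc32 by -7.69, Rn7sk by -4.72, Plxdc2 by -4.61, Sparc by -4.6, Dclk1 by -4.49, Bgn by -4.44, Trf by -4.32, Tpm2 by -4.19 and Gm26917 by -4.12. Fscn1, which encodes an actin-bundling protein, differed by -4.71 in M1. Among genes that fell in M0 it was positive: Ch25h by 9.07, Raver2 by 7.87 and Ccl7 by 7.37 in M2, and Cd55 by 8.91, Zfp811 by 7.25, Lancl3 by 6.8, Fpr1 by 6.37, Marco by 5.76, Klra2 by 5.65 and Gpr84 by 2.3 in M1. The Raver2 difference was lost without knockout M2 replicate 3 (adjusted p = 0.327). Exoc4 differed by -0.606 in M2, and this was lost without any 1 of 7 of the 12 libraries (adjusted p up to 0.181). Fitted values of genes with no count in a group (Lrrc32, Ch25h, Raver2) depend on the prior count.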

How the results depend on the processing

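In M0 vehicle, no named gene changed the sign of its fold change under the alternatives that gave it a value. The balance of calls was less stable: higher against lower calls went from 1929 and 1977 to 1968 and 1861 in M0 and from 143 and 276 to 490 and 150 in M2 with total-count scaling, and from 699 and 673 to 674 and 677 in M1 with the replicate block. The count of genes called in M0 vehicle was 3903 with median-ratio factors, 3829 with total-count scaling, 3716 with no filter, 4034 with DESeq2, 3821 in the 6 libraries alone, 3618 in the 18 vehicle libraries and 2108 when a log2 change of 1 or more in size was also asked; without 1 of the 6 libraries it was 2816 (wild-type replicate 1) to 3705. The same fold threshold gave 623 genes in M1, 204 in M2, 738 with AP-3-84 and 10 called alike in all 4. Total-count scaling gave 2093 in M1 and 640 in M2. With no filter 959 were called in M2 (48.5% of them higher) and 49 alike in all 4. DESeq2 gave 699 in M2, and the 18 vehicle libraries 269. Total-count scaling moved the median of all genes to 0.05 in M0, and to 0.23 and 0.13 for the M1 and M2 differences. Without single libraries the count ranged from 580 to 1778 in M1, 97 to 916 in M2, 688 to 2102 with AP-3-84, 9 to 21 alike in all 4, 1777 to 2320 for the M1 difference and 2246 to 3482 for the M2 difference.

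Deviations of same-numbered replicates correlated weakly (r = 0.0681, -0.0329 and 0.188), beside -0.174 to 0.113 for the other pairs. With 3 libraries a group this cannot show whether same-numbered replicates share a day or batch. With a replicate block 3843 genes were called in M0 (3950 in the 6 libraries alone), 2373 for the M1 and 3147 for the M2 difference (2707 and 2237 with only the libraries compared). Of 132 named genes, 125 had a value under all 15 alternatives tried in M0, and 97 of these kept their side of the threshold in each; the other 7 had 12 or 13 values, and 5 of them kept their side in those.

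With 3 libraries a group and 3081707 to 4277426 counts each, differences in genes of few counts were often not detectable. Genotype and any culture or batch particular to the 3 knockout vehicle libraries cannot be told apart, since the labels give neither.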
